A study of Mus musculus with 6 samples.

Results

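The genes described here are the Wnt ligands, their cell-surface receptors and the secreted proteins that modulate them, 48 named genes of the 23279 genes tested on arrays of primary mouse myoblasts. They were taken by symbol through the platform annotation and fall into 19 Wnt ligands, 10 Frizzled receptors, 5 co-receptors and receptor kinases, 6 secreted Wnt-binding proteins, 4 genes of the Dickkopf and Kremen proteins and 4 R-spondins. All 48 had a probe set, and all were fitted, since no filter on low values was applied. Activated cultures (3 arrays) were treated with 4-OH tamoxifen dissolved in ethanol, and control cultures (3 arrays) with ethanol alone. Both groups came from limb muscles of mice labelled C57bl6N and carried Pax7-CreERT2, an inducible Cre recombinase driven by the muscle stem cell gene Pax7, and 1 beta-catenin allele with exon 3 between loxP sites. Cells were expanded for 5 passages in 20% FBS with bFGF and then kept for 24 hours in 2% HS to differentiate, and it was these differentiating cells that received tamoxifen or ethanol, per the labels' protocols. Controls carried the same alleles but received no tamoxifen, so the recombination and the compound itself cannot be told apart. Cultures are described as independent, but the animals behind them, their age, the tamoxifen dose and the share of recombined cells are not stated in the labels.

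Wnt proteins are secreted, lipid-modified signals that bind Frizzled receptors at the cell surface. In the canonical branch a Frizzled and the co-receptor Lrp5 or Lrp6 together inactivate the complex that destroys beta-catenin, which then enters the nucleus and acts with TCF/LEF factors. Exon 3 of Ctnnb1 encodes the phosphorylation sites that mark beta-catenin for destruction, so its loss activates the pathway below the ligands and receptors. In skeletal muscle Wnt7a acting through Fzd7 is known to expand satellite cells, and Wnt signals take part in the passage of myoblasts into differentiation.

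When activated cultures were set against controls, none of the 48 genes had an adjusted p under 0.05 (limma with Benjamini-Hochberg adjustment over all genes, lowest value among them 0.402). Over all genes the count was also 0 (0%), and with the replicate number as a block it was 31 (0.133%), none of them a Wnt ligand, receptor or modulator, whose lowest adjusted p was then 0.148. At an unadjusted p under 0.05, 4 of the 48 were higher in activated cultures (Wnt9a, Fzd1, Fzd2 and Kremen1) against 4.44% of all genes, and 0 were lower against 3.42%. With the block these 4 were again higher, against 9.63% of all genes, and 2 were lower (Ror2 and Fzd10), against 7.01%. Without the block, Dkk2 took the place of Kremen1 among the 4 after quantile normalization and after cyclic loess. The unadjusted p in these 2 scalings was 0.151 and 0.218 for Kremen1, and 0.0359 and 0.0389 for Dkk2 (limma). In 5 genes (Wnt5a, Wnt9a, Fzd1, Lrp6 and Kremen1) every activated array lay above every control array, 10.4% of the 48 against 5.4% of all genes. In 2 genes (Wnt2 and Wnt3) every activated array lay below every control array, 4.17% against 7.4%. By sign alone 21 were higher and 27 lower, with a median log2 difference of -0.03 against -0.08 over all genes. When equally numbered arrays were compared, 8 of the 48 (16.7%) were higher in all 3 pairs, against 16.6% of all genes, and 9 (18.8%) were lower in all 3, against 25%.

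The 6 arrays had median log2 values from 4.08 to 4.37 and mean correlations with the other arrays from 0.896 (control replicate 3) to 0.946 (control replicate 2). Axin2, the negative-feedback target used as a readout of beta-catenin, was at 5.50, 5.85 and 6.54 in activated cultures and at 4.55, 3.81 and 4.58 in control cultures, a log2 difference of 1.65 ± 0.35 (SE; limma, adjusted p = 0.29). Ctnnb1, the targeted gene, was at 7.91, 8.79 and 8.91 in activated cultures and at 8.54, 8.71 and 8.30 in control cultures, a log2 difference of 0.02 ± 0.31 (SE) that was -0.35 after quantile normalization. Which exons its probe set covers is not stated, so it does not check the loss of exon 3. Of 11 myoblast and myocyte markers, all 11 had a mean level above 4.23, the 95th percentile of 1083 olfactory receptor probe sets, which serves here as a guide to the values of genes not known from muscle. Probe sets differ in response, so this value is not a detection call. Mean levels of these 11 markers were 7.78 to 8.38 on activated arrays and 6.99 to 7.89 on control arrays. By sign 8 of the 11 were higher and 3 lower, with a median log2 difference of 0.98. Of these markers 0 passed (limma, lowest adjusted p = 0.325). Every activated array lay above every control array in 5 (45.5%, against 5.4% of all genes) and below in 1 (9.09%, against 7.4%). The 8 higher were Myog (2.22), Mymk (1.69), Des (1.56), Myh3 (1.32), Cdh15 (1.03), Itga7 (0.98), Myf5 (0.38) and Myod1 (0.16). The 3 lower were Vcam1 (-1.38), Pax7 (-0.60) and Ckm (-0.27). In Mymk, Myf5, Myod1, Pax7 and Ckm the groups overlapped. The part of these differences in the Wnt gene values was not tested.

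Markers of other cell types reached that value in part, with 5 of 14 fibroblast, 7 of 11 smooth muscle and pericyte, 1 of 10 endothelial, 4 of 10 leukocyte and 5 of 9 neural and Schwann cell markers above it. Fibroblast markers averaged 4.01 to 4.38 on activated arrays and 4.27 to 4.39 on control arrays. The 5 above 4.23 were Fn1 (mean 9.42), Col3a1 (6.61), Thy1 (5.20), Fbln1 (4.95) and Col1a1 (4.61), and Dcn, Lum, Postn and Pdgfra were among the 9 below it. Of the 5 above it, Thy1 differed by 1.17, Fbln1 by -1.11, Col3a1 by -0.95, Col1a1 by -0.09 and Fn1 by -0.04 (log2, activated minus control). Of the 14 fibroblast markers 2 were higher and 12 lower by sign, and 7 and 7 after quantile normalization. Every activated array lay below every control array in 2 (14.3%, against 7.4% of all genes). Smooth muscle and pericyte markers averaged 5.13 to 5.42 on activated arrays and 5.17 to 5.29 on control arrays. Of these 11 markers 4 were higher and 7 lower by sign, and Rgs5 differed by -1.78, Abcc9 by 1.26 and Acta2 by 1.08. Neural markers averaged 4.71 to 5.12 on activated and 4.51 to 4.82 on control arrays. Of the 9 neural markers 7 were lower by sign, with a median log2 difference of -0.29, and Tubb3 and Erbb3 were higher, by 3.16 and 1.75. Endothelial markers averaged 2.96 to 3.24 on activated and 3.22 to 3.44 on control arrays, and leukocyte markers 3.56 to 3.89 on activated and 3.75 to 4.32 on control arrays. By sign 8 of 10 endothelial and 9 of 10 leukocyte markers were lower, and 8 of 10 of each after quantile normalization. Every activated array lay below every control array in 1 endothelial (10%) and 4 leukocyte markers (40%), against 7.4% of all genes. In both types 0 passed (limma, lowest adjusted p = 0.736 for endothelial and 0.58 for leukocyte markers). Most of these markers lay below 4.23, where only 21.8% of all genes were higher in activated cultures. The part of these cells in the Wnt gene values was not tested. In cultures measured in bulk, fewer cells of a type, less RNA per cell and a shift of low values between arrays cannot be told apart.

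**Figure D1:**
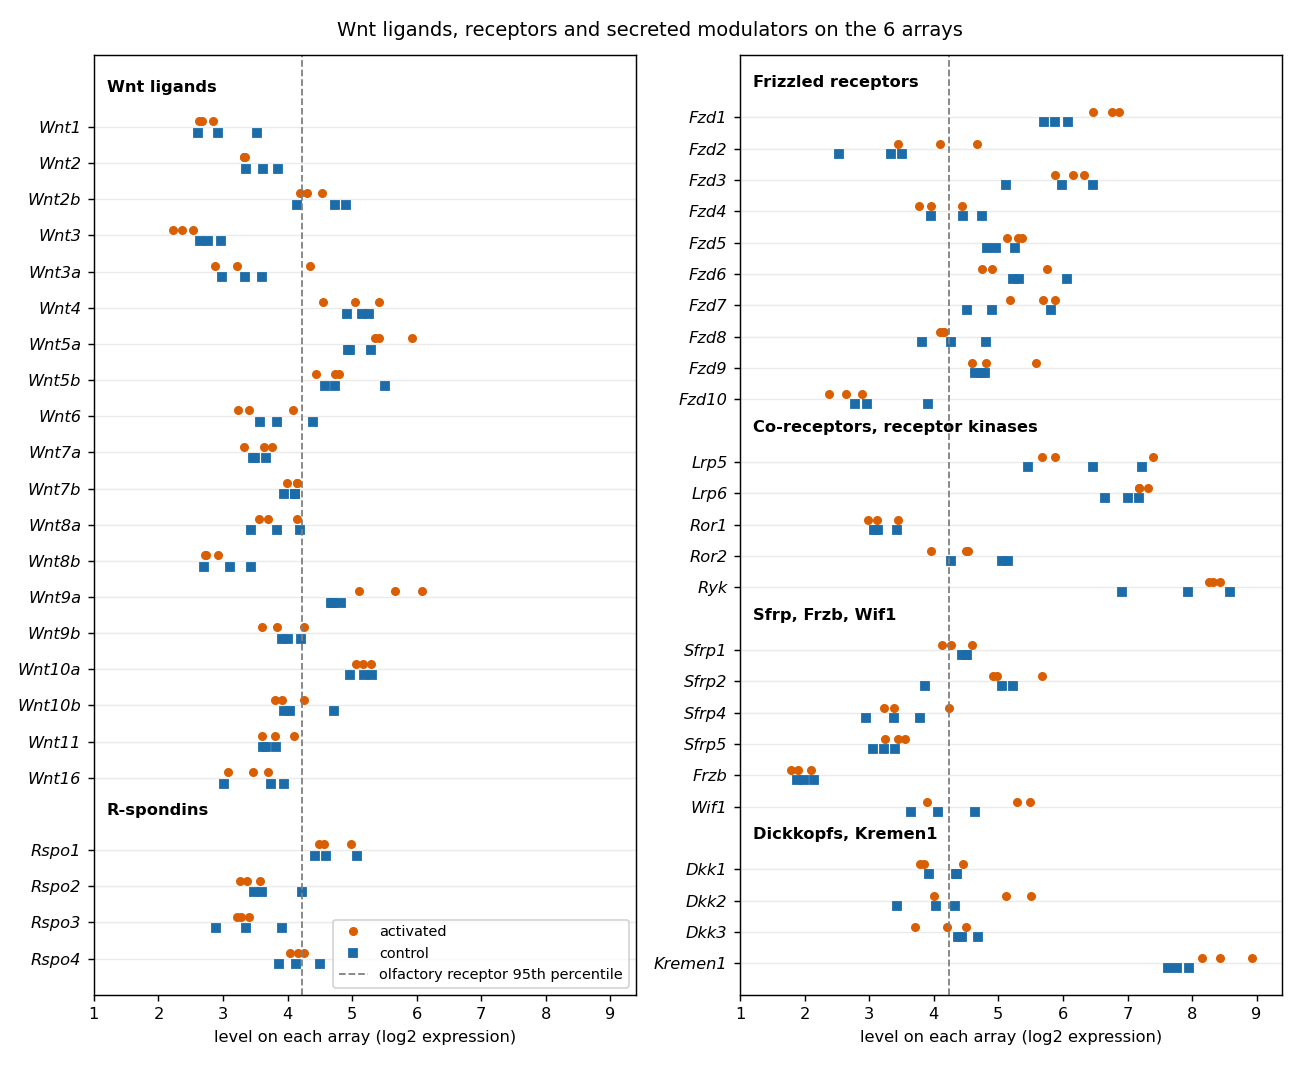
Level of each of the 48 genes on each array (log2 expression, horizontal axis), with 3 activated arrays as circles above 3 control arrays as squares. The dashed line marks the 95th percentile of olfactory receptor probe sets (4.23); 23 of the 48 genes have a mean to its right, and the groups overlap in most rows.

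Promoter windows are shown for Fzd1 and Wnt9a, which had the smallest p among the genes with a window, and for Dkk1 and Wnt11. The Dkk1 window and 1 of the 2 Wnt11 windows hold a word bound by TCF/LEF factors, the DNA partners of beta-catenin. Only that window of Wnt11 is shown. Wnt5b, with such a word in 1 of its 3 windows, is not shown. RefSeq promoter sequences (GRCm38.p6) matched 32 of the 48 genes, with 35 windows of 250 bases before a start site. The words searched on both strands were CTTTGAT and CTTTGAA, which share their first 6 letters, and CAGCTG, a form of the E-box that myogenic factors bind, chosen after the values were seen. Either TCF/LEF word was in 3 of the 35 windows (Wnt5b, Wnt11 and Dkk1), against 7.48% of all 32851 windows, and CAGCTG in 3 (Fzd10, Frzb and Wnt9a), against 13%. In the sequences below, written 5′ to 3′ on the strand of the gene, capitals mark these words.
Fzd1, chr5:4758217-4758466, minus strand: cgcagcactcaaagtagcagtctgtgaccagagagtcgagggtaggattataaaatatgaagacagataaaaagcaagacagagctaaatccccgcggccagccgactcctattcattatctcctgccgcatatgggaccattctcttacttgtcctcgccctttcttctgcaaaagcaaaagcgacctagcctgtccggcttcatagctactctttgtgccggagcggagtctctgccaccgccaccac
Wnt9a, chr11:59306680-59306929, plus strand: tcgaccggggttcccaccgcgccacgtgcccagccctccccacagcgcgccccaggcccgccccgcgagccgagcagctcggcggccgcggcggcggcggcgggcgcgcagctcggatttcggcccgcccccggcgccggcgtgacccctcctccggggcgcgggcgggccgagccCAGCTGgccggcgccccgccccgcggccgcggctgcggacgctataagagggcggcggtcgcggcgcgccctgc
Dkk1, chr19:30549497-30549746, minus strand: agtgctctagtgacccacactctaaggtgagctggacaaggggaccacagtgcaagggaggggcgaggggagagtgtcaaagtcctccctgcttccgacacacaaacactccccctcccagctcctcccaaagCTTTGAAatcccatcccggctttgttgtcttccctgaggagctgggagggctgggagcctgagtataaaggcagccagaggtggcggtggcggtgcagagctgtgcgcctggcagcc
Wnt11, chr7:98834862-98835111, plus strand: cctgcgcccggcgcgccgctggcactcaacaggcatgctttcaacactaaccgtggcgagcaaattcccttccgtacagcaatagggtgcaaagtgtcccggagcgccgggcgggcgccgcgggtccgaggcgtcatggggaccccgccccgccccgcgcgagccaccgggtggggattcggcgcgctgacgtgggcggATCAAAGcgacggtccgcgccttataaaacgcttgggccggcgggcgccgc

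In the Dkk1 window the word began 117 bases before the start site, and in the Wnt11 window, on the opposite strand, 51 bases before it. In both genes the groups overlapped. Wnt11, a ligand of the branch without beta-catenin, was at 4.10, 3.80 and 3.60 in activated cultures and 3.66, 3.62 and 3.82 in control cultures, a log2 difference of 0.13 ± 0.22 (SE). The windows of Fzd1 and Wnt9a held neither TCF/LEF word, and that of Wnt9a held CAGCTG 74 bases before the start. These matches describe the letters of a short window only. The Wnt9a and Wnt11 windows run 81 and 28 bases into the span that the RefSeq gene table gives for the gene. The CAGCTG of Wnt9a therefore lies inside that span, and the word in the Wnt11 window lies before it. The 35 windows held a median of 22 CG dinucleotides, against 6 over all windows, with a range among the 35 from 4 (Wnt5b) to 48 (Wnt9a).

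Of the 19 Wnt ligands, 6 had a mean over the 6 arrays above 4.23, against 50.9% of all genes (Wnt2b, Wnt4, Wnt5a, Wnt5b, Wnt9a and Wnt10a). By sign 7 ligands were higher in activated cultures and 12 were lower, and their median log2 difference was -0.15. After quantile normalization 9 were higher and 10 lower, with a median of -0.03.

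Wnt9a, a ligand known for its part in joint formation, had the largest difference among the ligands. Its level was 5.10, 5.66 and 6.08 on the activated arrays and 4.67, 4.83 and 4.70 on the control arrays. The control arrays lay close together, and the activated arrays spread over a wider range above them. The means were 5.61 ± 0.49 in activated and 4.73 ± 0.09 in control cultures (SD, n = 3 each). The fold was 1.84, from a log2 difference of 0.88 ± 0.28 (SE; 95% interval 0.21 to 1.54), which did not pass (limma, adjusted p = 0.501, and 0.179 with the replicate block). It was 0.86 after quantile normalization and 0.64 without activated replicate 3.

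Wnt5a, the prototype of ligands that signal without beta-catenin, was at 5.42, 5.36 and 5.93 in activated cultures and at 5.29, 4.93 and 4.97 in control cultures. The groups did not overlap, with a gap of 0.079 between them, and they overlapped after quantile normalization and after cyclic loess. The log2 difference was 0.51 ± 0.25 (SE; limma, adjusted p = 0.669), and 0.33 without activated replicate 3. Its close relative Wnt5b did not share the sign, at 4.74, 4.44 and 4.80 in activated cultures and 4.74, 4.58 and 5.51 in control cultures. The log2 difference of Wnt5b was -0.28 ± 0.30 (SE) and 0.00 without control replicate 3, the array on which it was highest.

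Wnt4, a ligand of kidney and reproductive tract development, was at 5.42, 4.55 and 5.05 in activated cultures and 5.26, 4.92 and 5.15 in control cultures. Wnt10a, known from skin appendages and teeth, was at 5.29, 5.06 and 5.17 in activated cultures and 5.31, 4.96 and 5.19 in control cultures. In Wnt4 the control arrays lay within the range of the activated arrays, and in Wnt10a the activated arrays lay within that of the controls. The unadjusted 95% interval of the difference ran from -0.75 to 0.54 for Wnt4 and from -0.47 to 0.52 for Wnt10a, so a change of 2-fold lay outside both. Wnt2b was at 4.20, 4.30 and 4.54 in activated cultures and 4.90, 4.15 and 4.73 in control cultures, with control replicate 2 the lowest of all 6. Its log2 difference of -0.25 was -0.47 without that array and -0.09 without control replicate 1.

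Wnt2 and Wnt3 were the ligands whose activated arrays all lay lower. Wnt3, required for gastrulation, was at 2.53, 2.23 and 2.36 in activated cultures and 2.77, 2.97 and 2.65 in control cultures, a log2 difference of -0.42 ± 0.21 (SE; limma, adjusted p = 0.685). Wnt2, a ligand of lung development, was at 3.33, 3.32 and 3.34 in activated cultures and 3.62, 3.35 and 3.85 in control cultures, and its groups were only 0.0072 apart. Its log2 difference of -0.28 was -0.09 after quantile normalization and -0.15 without control replicate 3. All of these values lie under the olfactory receptor percentile. After quantile normalization neither ligand separated the groups, and after cyclic loess Wnt3 did. The 11 ligands left, Wnt7a among them, had log2 differences from -0.37 (Wnt6) to 0.17 (Wnt3a). Wnt7a itself was at 3.64, 3.33 and 3.76 in activated cultures and 3.49, 3.46 and 3.67 in control cultures. Its groups overlapped, with a log2 difference of 0.04. After quantile normalization and after cyclic loess every activated array lay above every control array, with differences of 0.23 and 0.24. The mean of Wnt7a, 3.56, lies under the olfactory percentile.

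Among the Frizzled receptors, the highest differences belonged to Fzd1, Fzd2 and Fzd7, which form 1 branch of the family. Of the 10 receptors 6 were higher and 4 were lower by sign, and the median log2 difference was 0.25. Fzd1 was at 6.47, 6.87 and 6.76 on the activated arrays and 5.87, 6.08 and 5.71 on the control arrays. Both groups were tight, and the lowest activated array exceeded the highest control array by 0.39. The means were 6.70 ± 0.21 in activated and 5.89 ± 0.18 in control cultures (SD, n = 3 each). The fold of Fzd1 was 1.76, from a log2 difference of 0.81 ± 0.22 (SE; 95% interval 0.29 to 1.34), with the smallest p of the 48 genes (limma, unadjusted 0.00764, adjusted 0.402; 0.148 with the block). It was 0.63 after quantile normalization and 0.73 to 0.93 when any 1 array was left out.

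Fzd2 was at 3.44, 4.67 and 4.09 in activated cultures and 3.50, 3.34 and 2.53 in control cultures. Activated replicate 1 fell within the control range, and control replicate 3 was the lowest array. The log2 difference was 0.94 ± 0.39 (SE; 95% interval 0.02 to 1.86; limma, adjusted p = 0.627), 1.25 without activated replicate 1, and 0.64 without activated replicate 2 or without control replicate 3. The mean of Fzd2, 3.60, lies under the olfactory percentile. Fzd7, the receptor of Wnt7a on satellite cells, was at 5.18, 5.69 and 5.87 in activated cultures and 4.90, 5.82 and 4.52 in control cultures. In Fzd7 control replicate 2 lay within the activated range, and the log2 difference of 0.50 ± 0.37 (SE; limma, adjusted p = 0.754) was 0.22 without control replicate 3 and 0.87 without control replicate 2.

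The receptors Fzd3 and Fzd6, which act in planar cell polarity, had opposite signs. Fzd6 was at 5.75, 4.74 and 4.90 in activated cultures and 6.06, 5.23 and 5.32 in control cultures, lower in each numbered pair while the groups overlapped. Its log2 difference was -0.41 ± 0.36 (SE; limma, adjusted p = 0.769, and 0.341 with the block), -0.15 without control replicate 1 and -0.72 without activated replicate 1. Fzd3 was at 6.32, 6.16 and 5.88 in activated cultures and 5.99, 6.47 and 5.12 in control cultures, a log2 difference of 0.26 that turned to -0.11 without control replicate 3 and was 0.57 without control replicate 2. Fzd5 was at 5.36, 5.30 and 5.13 in activated cultures and 5.25, 4.97 and 4.82 in control cultures, and was higher in each pair by 0.11, 0.33 and 0.31. For Fzd5 the log2 difference was 0.25, and 0.15 without control replicate 3. Fzd9 was at 5.58, 4.80 and 4.59 in activated cultures and 4.79, 4.73 and 4.64 in control cultures, where activated replicate 1 stood above the other 5 arrays. Without that array its log2 difference of 0.27 was -0.03. Fzd4, a receptor also of the ligand Norrin, and Fzd8 had means of 4.22 and 4.21, just under the olfactory percentile, and log2 differences of -0.33 and -0.16. Fzd10, under the percentile as well, had the lowest log2 difference of all 48 genes in the deposited values, -0.59 ± 0.34 (SE; limma, adjusted p = 0.709). After quantile normalization it was -0.43, with Ror2 at -0.47 and Fzd6 at -0.46.

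**Figure D2:**
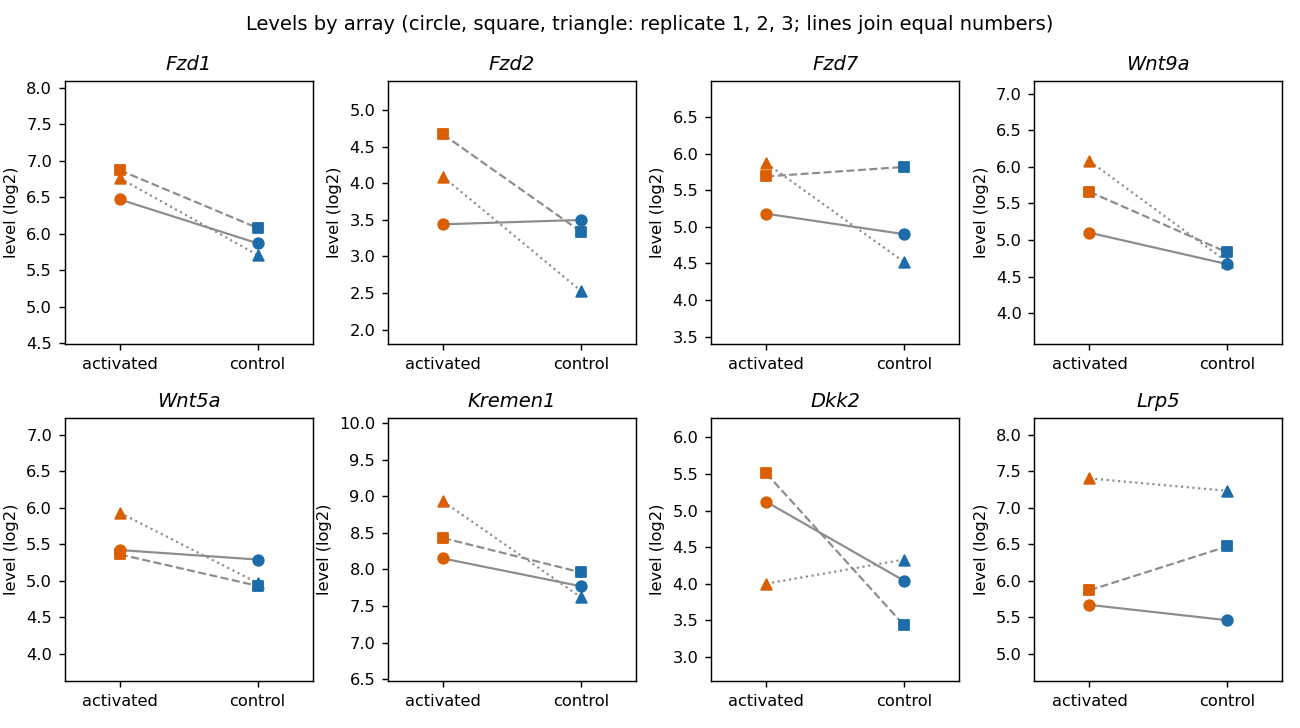
Levels (log2, vertical axis) of 8 genes in activated (left) and control (right) cultures, where each marker is 1 array and lines join arrays of equal replicate number. Fzd1, Wnt9a and Kremen1 were higher in activated cultures in each pair, Dkk2 was lower in the third pair, and Lrp5 was high in replicate 3 of both groups.

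The canonical co-receptors Lrp5 and Lrp6 did not pass the test. Lrp6 was at 7.31, 7.18 and 7.18 in activated cultures and 7.18, 7.0 and 6.65 in control cultures, and the groups were separated by 0.0027. Its log2 difference of 0.28 ± 0.23 (SE; limma, adjusted p = 0.756) was 0.03 after quantile normalization and 0.14 without control replicate 3. Lrp5 was at 5.67, 5.87 and 7.40 in activated cultures and 5.46, 6.47 and 7.23 in control cultures. Replicate 3 was the highest array in both groups, so the means of the numbered pairs were 5.56, 6.17 and 7.31. That range of 1.75 was the widest of the 48 genes, whose median was 0.49 against 0.53 over all genes. The log2 difference of Lrp5 was -0.08 with a 95% interval from -1.44 to 1.29, so changes of 2-fold in either direction lie within it. With the replicate block the interval was -0.66 to 0.51, which leaves out a 2-fold change either way.

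Ror2 and Ryk are Wnt receptors outside the Frizzled family. Ryk was at 8.43, 8.33 and 8.26 in activated cultures and 7.94, 8.59 and 6.91 in control cultures, where the activated arrays agreed closely and control replicate 3 was far below the rest. Its log2 difference of 0.53 ± 0.41 (SE; limma, adjusted p = 0.756) was 0.08 without that array, 0.92 without control replicate 2 and 0.27 after quantile normalization. Ror2, a receptor kinase for Wnt5a, was at 4.50, 3.95 and 4.53 in activated cultures and 5.05, 4.27 and 5.15 in control cultures. It was lower in each pair, with differences of -0.55, -0.32 and -0.62, and the log2 difference was -0.50 ± 0.31 (SE; limma, adjusted p = 0.729, and 0.277 with the block). Leaving out control replicate 2 gave -0.77, and leaving out activated replicate 2 gave -0.31. Ror1 lay under the olfactory percentile and differed by -0.03.

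**Figure D3:**
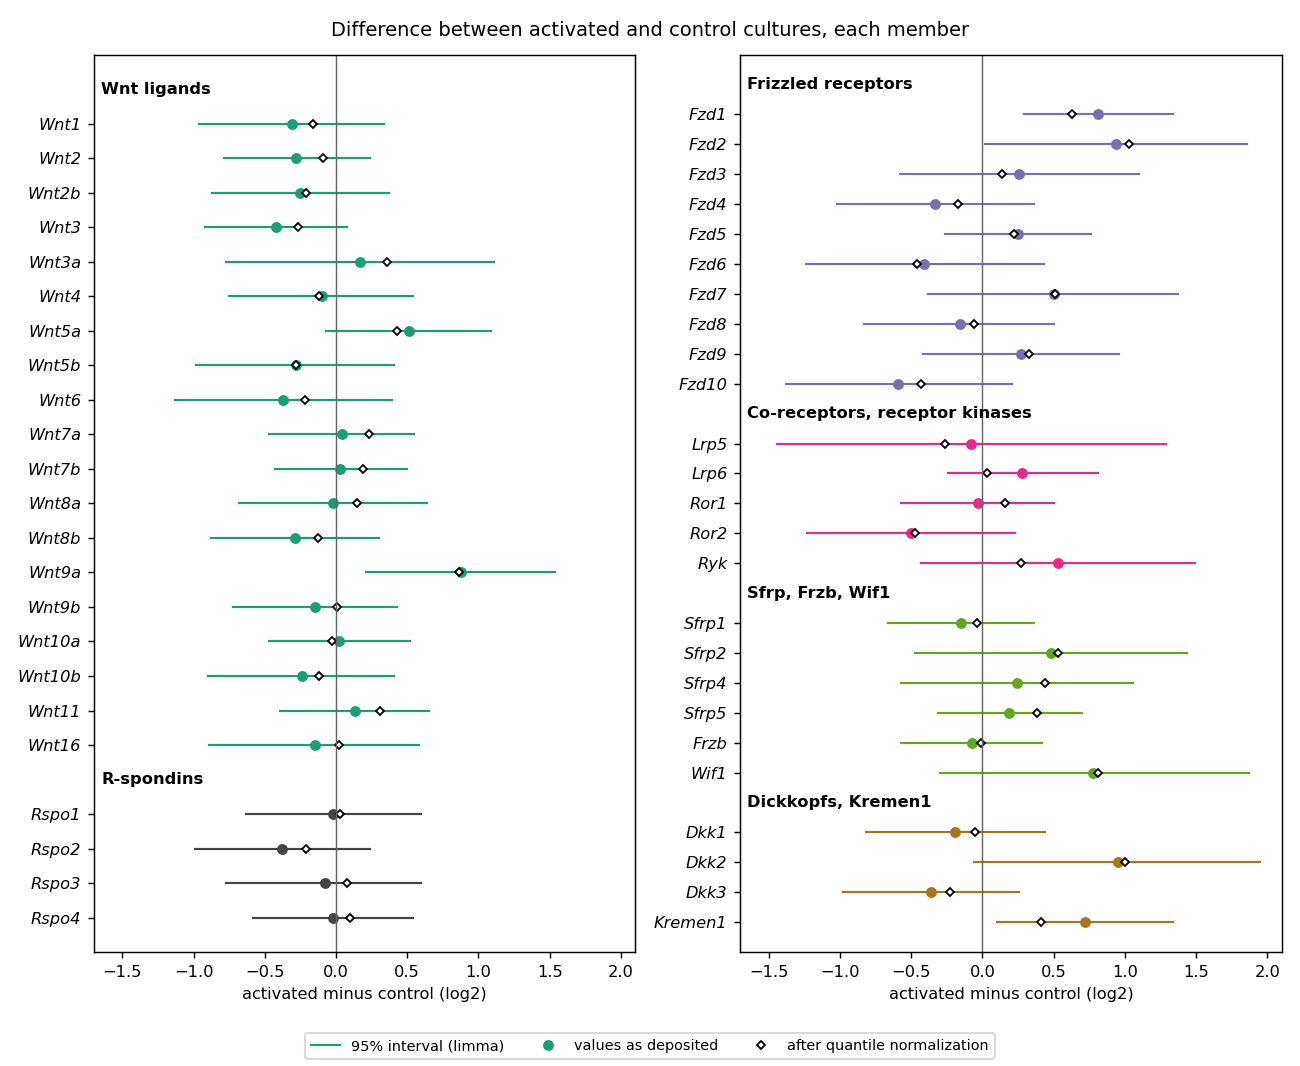
Activated minus control difference of each gene (log2, horizontal axis), with filled circles and 95% limma intervals for the values as deposited and open diamonds after quantile normalization. The unadjusted intervals of Fzd1, Fzd2, Wnt9a and Kremen1 lie above 0, and no gene passed after adjustment.

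The secreted Wnt-binding proteins Sfrp1, Sfrp2, Sfrp4, Sfrp5, Frzb and Wif1 hold Wnts away from their receptors. By sign 4 of the 6 were higher, with a median log2 difference of 0.22. Wif1 was at 5.29, 5.49 and 3.90 in activated cultures and 4.63, 3.64 and 4.06 in control cultures. On 2 activated arrays it exceeded every control array, and on activated replicate 3 it lay among them. The log2 difference was 0.78 ± 0.46 (SE; limma, adjusted p = 0.719), 1.28 without activated replicate 3 and 0.49 without activated replicate 2. Sfrp2 was at 5.68, 4.98 and 4.91 in activated cultures and 5.22, 5.05 and 3.86 in control cultures, and its log2 difference of 0.48 was 0.06 without control replicate 3 and 0.74 without control replicate 1. Sfrp1 was at 4.27, 4.12 and 4.59 in activated cultures and 4.51, 4.49 and 4.43 in control cultures, a log2 difference of -0.15 (95% interval -0.66 to 0.36) that was -0.04 without activated replicate 2 and -0.28 without activated replicate 3. Frzb was at most 2.14 on every array, and Sfrp4 and Sfrp5 differed by 0.24 and 0.19.

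Dickkopf proteins bind Lrp5 and Lrp6 and block their use by Wnts, and Kremen1 is the receptor that removes Lrp6 from the surface together with a bound Dickkopf. Kremen1 was at 8.15, 8.43 and 8.93 on the activated arrays and 7.77, 7.96 and 7.62 on the control arrays. The groups were 0.18 apart, and the third pair differed most, by 1.31 against 0.38 and 0.46. The means were 8.50 ± 0.40 in activated and 7.78 ± 0.17 in control cultures (SD, n = 3 each). The fold was 1.65, from a log2 difference of 0.72 ± 0.27 (SE; 95% interval 0.10 to 1.34; limma, adjusted p = 0.575). The log2 difference was 0.41 after quantile normalization, 0.34 after cyclic loess, where the groups overlapped, and 0.50 without activated replicate 3.

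Dkk2 was at 5.12, 5.51 and 4.00 in activated cultures and 4.04, 3.43 and 4.33 in control cultures. As with Wif1, activated replicates 1 and 2 lay above every control array and activated replicate 3 did not. The log2 difference was 0.95 ± 0.43 (SE; 95% interval -0.06 to 1.95; limma, adjusted p = 0.648), 1.39 without activated replicate 3 and 0.63 without activated replicate 2. Dkk3, a divergent family member, was at 4.50, 3.71 and 4.21 in activated cultures and 4.68, 4.44 and 4.38 in control cultures. The Dkk3 difference of -0.36 ± 0.26 (log2, SE) was -0.14 without activated replicate 2 and -0.54 without activated replicate 1. Dkk1, which in many tissues is a target of beta-catenin that feeds back on the pathway, had a mean of 4.12. It was at 4.45, 3.78 and 3.84 in activated cultures and 4.35, 3.93 and 4.36 in control cultures, a log2 difference of -0.19 with a 95% interval from -0.82 to 0.44.

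R-spondins strengthen Wnt signalling by binding Lgr receptors and withdrawing the ligases Rnf43 and Znrf3 from Frizzleds. All 4 were lower by sign in activated cultures, and 3 of them were higher after quantile normalization, so the group has no stable direction. Rspo1, known to promote myoblast differentiation, was at 4.99, 4.48 and 4.57 in activated cultures and 4.59, 4.42 and 5.07 in control cultures, a log2 difference of -0.02 with a 95% interval from -0.63 to 0.60. Rspo2 was at 3.26, 3.37 and 3.57 in activated cultures and 4.22, 3.61 and 3.48 in control cultures, with control replicate 1 apart from the other 5. Its log2 difference of -0.38 was -0.15 without that array. Rspo3 and Rspo4 differed by -0.08 and -0.02.

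The sign of the differences moved with the level of the gene. Arrays differed in spread, with SDs over all genes of 1.89, 2.13 and 1.96 in activated and 1.72, 2.02 and 1.76 in control replicates 1, 2 and 3. Among all genes with a mean above 4.23, 58.1% were higher in activated cultures, and among those below it 21.8% were. Among the 48 genes 14 of 23 (60.9%) above that value and 7 of 25 (28%) below it were higher. After quantile normalization these counts were 14 of 23 and 13 of 25, and the shares over all genes were 49.5% and 46.9%. Between the deposited and the quantile-normalized values 8 of the 48 genes changed sign, none with a deposited log2 difference beyond 0.15 in size. The size of the differences was that of genes in general, with a median absolute log2 difference of 0.26 over the 48 and 0.26 over all genes.

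**Figure D4:**
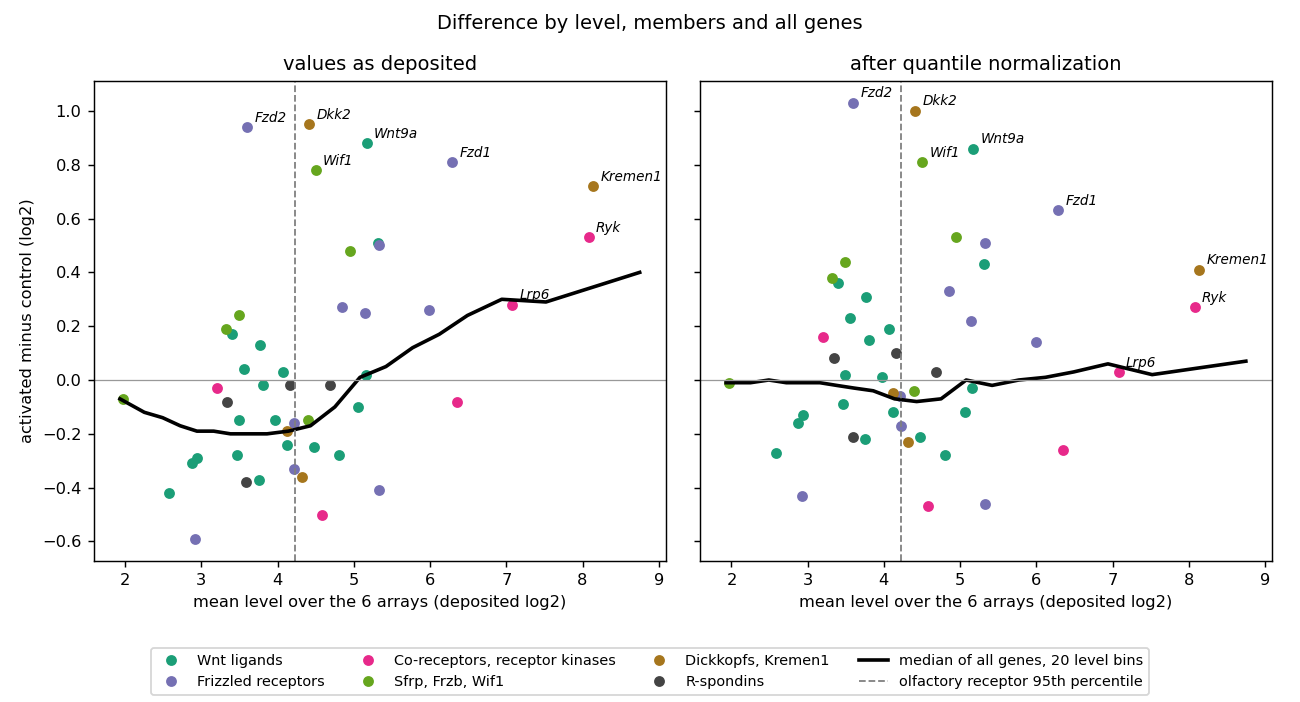
Activated minus control difference (log2, vertical axis) against the mean level over the 6 arrays (horizontal axis) for the 48 genes, with the values as deposited on the left and after quantile normalization on the right. The black line is the median of all genes in 20 bins of level; on the left it is lowest, at -0.20, in bins with mean levels from 3.38 to 3.86 and reaches 0.40 in the highest bin, and on the right it stays between -0.08 and 0.07.

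Other genes that act on Wnts at the cell surface or during their secretion were measured for comparison, 30 in a list drawn up for the pathway. Of these 15 were higher and 15 lower, and 0 passed (limma, lowest adjusted p = 0.38, and 0.0816 with the block). Every activated array lay above every control array in 3 of the 30 (10%, against 5.4% of all genes). All lay below in 2 (6.67%, against 7.4%). The 4 with the smallest p were Sostdc1, Porcn, Lrp4 and Lgr6. They were picked by p, so a separation of their groups adds no support. Porcn, the enzyme that attaches the lipid Wnts need for secretion, was at 7.0, 7.75 and 7.06 in activated cultures and 6.25, 5.88 and 6.50 in control cultures, with no overlap. Its fold was 2.08, from a log2 difference of 1.06 ± 0.29 (SE; limma, adjusted p = 0.404). Lrp4, a receptor of agrin at the neuromuscular junction and of Sostdc1, was at 7.14, 7.72 and 8.26 in activated cultures and 6.07, 6.66 and 6.95 in control cultures. It was higher in all 3 pairs by similar amounts, 1.07, 1.06 and 1.30, and it had the list's lowest adjusted p with the block (limma, 0.0816; 0.479 without).

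Sostdc1, a secreted antagonist of Wnt and BMP signals, was at 4.92, 4.71 and 4.85 in activated cultures and 6.13, 6.38 and 5.38 in control cultures. Every activated array lay below every control array, and the log2 difference was -1.14 ± 0.30 (SE; limma, adjusted p = 0.38; -1.17 after quantile normalization). Lgr6, a receptor of R-spondins, was at 7.21, 7.36 and 8.66 in activated cultures and 6.47, 7.30 and 6.50 in control cultures, a log2 difference of 0.99 ± 0.44 (SE; limma, adjusted p = 0.638). Activated replicate 3 stood above the rest, and control replicate 2 lay within the activated range.

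**Figure D5:**
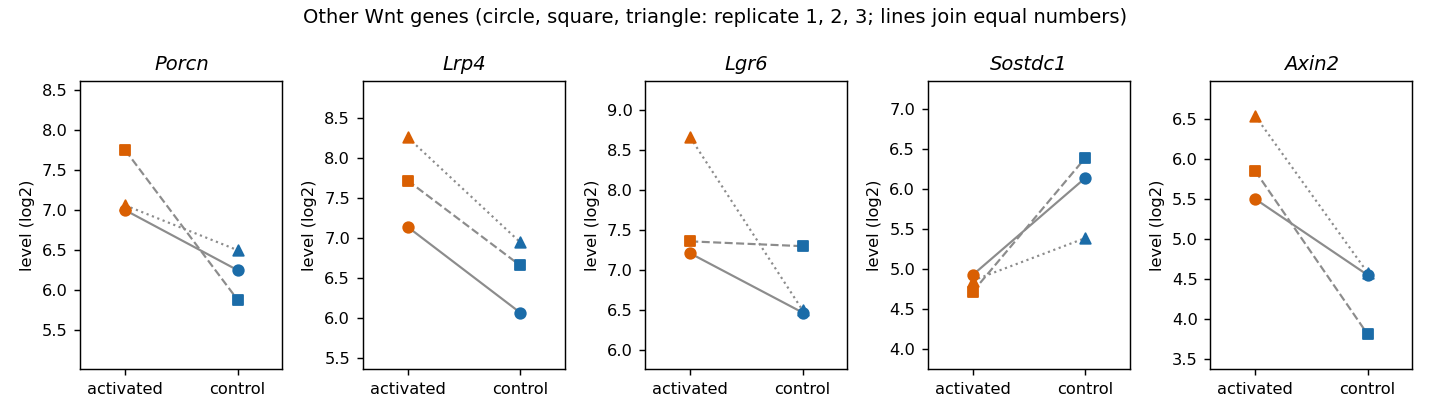
Levels (log2, vertical axis) of Porcn, Lrp4, Lgr6, Sostdc1 and the readout gene Axin2 in activated (left) and control (right) cultures, 1 marker per array with lines joining equal replicate numbers. Porcn, Lrp4 and Axin2 were higher and Sostdc1 lower in activated cultures with no overlap between the groups, and Lgr6 overlapped. All but Axin2 were picked for the smallest p of a list of 30 genes.

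A second list held 28 genes, of Dishevelled proteins and planar polarity together with genes of calcium signalling (Camk2d, Plcb1, Nfatc1 and Nfatc2). Its counts therefore do not stand for 1 branch. Of the 28 genes 15 were higher and 13 lower by sign (13 and 15 after quantile normalization), and 0 passed (limma, lowest adjusted p = 0.405, and 0.13 with the block). Invs, encoding the ciliary protein inversin, was at 4.07, 3.69 and 3.75 in activated cultures and 4.75, 4.77 and 4.42 in control cultures, a log2 difference of -0.81 ± 0.23 (SE). Mapk8, a Jun kinase, was at 7.63, 7.60 and 6.98 in activated cultures and 6.58, 6.90 and 6.15 in control cultures, a log2 difference of 0.86 ± 0.29 (SE). In both genes the groups did not overlap. The polarity gene Prickle1, also without overlap, differed by 0.66 ± 0.24 (SE). The calcium-dependent kinase gene Camk2d, whose groups overlapped, differed by 0.58 ± 0.29 (SE), and by 0.28 after quantile normalization. Every activated array lay above every control array in 3 of the 28 genes (10.7%, against 5.4% of all genes). All lay below in 2 (7.14%, against 7.4%).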

How the data were processed

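Expression was measured on 6 Affymetrix arrays with whole-transcript labelling, 3 activated and 3 control, from 100 ng of total RNA each, per the labels' protocols. The authors deposited 1 table of log2 values per gene probe set; the submitters' processing notes name RMA and Partek without a role or version, and the array's genome build is not given there. RMA in general corrects background, normalizes by quantiles and summarizes probes. The deposited arrays did not share 1 distribution, with medians from 4.08 to 4.37 and SDs from 1.72 to 2.13. Whether a quantile step across these arrays was applied is not stated there. Of 24479 probe sets, 23281 had 1 gene symbol in the platform annotation, 0 had several and 1198 had none. For the 2 symbols with several probe sets, the one with the highest mean was kept, which left 23279 genes. All 48 members had their Entrez number and symbol in RefSeq.

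The fit (limma 3.58.1, R 4.3.3) had group as its only term, with two-sided moderated tests adjusted by Benjamini-Hochberg over all genes; no filter or pseudocount was applied. The script was tested on simulated data. Errors of differences are limma's SE, and p-values measure the spread between 3 cultures per group; the number of arrays limits the precision. Replicate numbers in the titles are shared between groups, and deviations from the group means correlated at 0.38, 0.487 and 0.45 for equally numbered arrays. Equal numbers were therefore compared as pairs and used as the replicate block. The main fit leaves this pairing out, so SE, intervals and p-values given without the block ignore it. Members described in full were those with groups that do not overlap, an unadjusted p under 0.05, a mean above the olfactory receptor percentile or the largest difference of their role, and from each other list the 4 smallest p; the other members given with values, Dkk1, Wnt7a, Wnt11 and Fzd10 among them, were chosen after their values were seen. Members and lists were chosen with earlier results of these data known. Alternatives were the replicate block, 3 scalings, quantile normalization with the block, a level filter, an intensity trend and leaving out each array.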

Additional observations from a re-analysis of the deposited data

How the results depend on the processing

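None of the 48 genes passed an adjusted p of 0.05 under any alternative run. With the replicate block 31 of all genes passed, and 0 to 28 passed when 1 array was left out, the 28 without activated replicate 3; with quantile normalization, with or without the block, 0 passed. The block changed no call on a member, and 6 members (12.5%, against 16.6% of all genes) then had an unadjusted p under 0.05 in place of 4; those gained, Ror2 and Fzd10, were lower in activated cultures. That count was 2 among the 23 members above the median level of all genes, 2 without activated replicate 2 and 2 to 6 over the arrays left out. Members with every activated array above every control array numbered 4 after quantile normalization, 3 after cyclic loess and 8 after median centring. With 1 array left out they numbered 6 to 9 (9 without activated replicate 3). Members with every activated array below numbered 0 after quantile normalization (also with the block), 1 after cyclic loess, 1 after median centring, 0 above the median level and 2 to 8 with 1 array left out (8 without control replicate 2 or activated replicate 1). Fewer arrays separate more easily. The shares over all genes under these scalings, the level filter or a missing array are not given here. The member counts under these settings, also those at an unadjusted p, therefore cannot be read as high or low. The median log2 difference of the members was 0.03 after quantile normalization (also with the block), 0.06 after cyclic loess, 0.10 after median centring, 0.26 above the median level, and -0.12 (without control replicate 2) to 0.08 (without activated replicate 2) otherwise. Among 27 members described in full, 8 of 185 differences turned sign under the other settings. Wnt10a was at -0.03 after quantile normalization (also with the block). Rspo1 was at 0.03 there, at 0.07 after cyclic loess and at 0.11 after median centring, which also put Wnt4 at 0.02 and Lrp5 at 0.05. With 1 array left out, 12 of 162 turned, in 7 members. Their ranges were -0.31 to 0.12 for Wnt4, -0.47 to 0.00 for Wnt5b, -0.08 to 0.10 for Wnt10a, -0.11 to 0.57 for Fzd3, -0.03 to 0.47 for Fzd9, -0.62 to 0.34 for Lrp5 and -0.17 to 0.17 for Rspo1. The causes were not tested.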
